A study of Mus musculus with 15 samples.

Results

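The 10 genes described here have known roles in macrophages and the osteoclast branch of the same lineage, Csf1 as a growth factor rather than a marker. Which cells of these ovaries expressed them was not tested. They were taken from the ovarian count table by an exact match of their symbols. All 10 of 10 symbols were found among 27907 genes, and all 10 were among the 21525 genes with enough reads to be tested. They are Csf1, Csf1r, Emr1, Cd68, Mrc1, Lyz2, Itgax, Gpnmb, Ctsk and Irf8, where Emr1 is the older symbol of Adgre1. Whole-ovary mRNA was sequenced from 7 HSD17B1-KI females and 8 wild-type (WT) females, with 1 library per mouse. HSD17B1-KI females were homozygous for HSD17B1 Ser143Ala, a germline point mutation carried by every cell, introduced into a single mouse line with CRISPR/Cas9. WT females carried no mutation and came from the same heterozygous breeding. Both groups were 6 months of age and in estrus. The mutation changes 1 codon, so gene counts do not check the genotype labels.

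Macrophages engulf dying cells and remodel tissue, and they depend on the growth factor CSF1 and its receptor CSF1R. In the ovary they are known to gather in atretic follicles and regressing corpora lutea. Osteoclasts, the bone-resorbing cells, arise from the same lineage and secrete the protease cathepsin K, whereas the transcription factor IRF8 drives macrophage and dendritic cell development and restrains osteoclast formation. The question of the comparison was whether these genes differed between genotypes, and whether Ctsk and Irf8 followed the amount of macrophage RNA in each ovary.

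Ctsk was higher in HSD17B1-KI ovaries by each of the 3 tests run, Irf8 was higher by DESeq2 but not by limma-trend or edgeR, and the other 8 genes passed none of them. The mean normalized count of Ctsk was, in HSD17B1-KI ovaries, 983 ± 123 (SD, n = 7) against 653 ± 111 (SD, n = 8) in WT, and that of Irf8 was 1704 ± 389 against 1065 ± 190. Normalized counts are read counts divided by the size factor of each library. The differences of those 8 genes ranged from -0.04 for Mrc1 to 0.45 for Gpnmb on the log2 scale.

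Ctsk, encoding cathepsin K, lies on the plus strand of chromosome 3 at 95499256 to 95509362 (GRCm38). In HSD17B1-KI ovaries the lowest normalized count of Ctsk was 841, the median 977 and the highest 1123. In WT ovaries they were 502, 685 and 815. Every HSD17B1-KI mouse was thus above every WT mouse, which held for 59 of the 21525 tested genes (0.274%). The difference in Ctsk was 0.60 ± 0.11 (SE) on the log2(normalized count + 1) scale, with a 95% interval of 0.35 to 0.85. Its adjusted p was 0.0468 by limma-trend. That test, with Benjamini-Hochberg adjustment at 0.05, called 46 of 21525 genes (0.214%), 45 of them higher in HSD17B1-KI. DESeq2 on the reads recovered from the table gave an adjusted p of 0.0003 for Ctsk and called 456 of 19790 genes with an adjusted p (2.3%), 314 higher and 142 lower. By edgeR the adjusted p was 0.0465, with 50 of 21525 genes called (0.232%). The limma-trend call was lost when any 1 of 13 mice was left out, with an adjusted p of up to 0.131, while DESeq2 called Ctsk without each of the 15 mice. The mice whose omission ended the limma-trend call were HSD17B1-KI 1 to 4, 6 and 7 and WT 1 to 5, 7 and 8.

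Irf8, the lineage factor, lies on the plus strand of chromosome 8 at 120736358 to 120756694 (GRCm38). In HSD17B1-KI ovaries its lowest normalized count was 1038, its median 1710 and its highest 2199. In WT ovaries they were 824, 1007 and 1406. In HSD17B1-KI, 6 of 7 values exceeded the whole WT range, and HSD17B1-KI 6 at 1038 fell among the WT values. The difference in Irf8 was 0.66 ± 0.15 (SE) on the log2(normalized count + 1) scale, with a 95% interval of 0.34 to 0.98. This did not pass limma-trend at an adjusted p of 0.0878 or edgeR at 0.0732, but passed DESeq2 at 0.0028. Without HSD17B1-KI 6 the limma-trend adjusted p was 0.0274, and DESeq2 called Irf8 without each of the 15 mice, the highest adjusted p being 0.0143. In whole ovaries, more cells of a type and more RNA per cell cannot be told apart, for these or any of the other genes.

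The 250 bases before the annotated start of Ctsk and before the first of 2 annotated starts of Irf8 are shown because these were the genes that differed. They come from RefSeq (GRCm38.p6), read 5′ to 3′ on the plus strand. The capitals mark GAGGAA or its reverse complement, a core bound by the macrophage factor PU.1, and TATAAA.
Ctsk, chr3:95498960-95499209: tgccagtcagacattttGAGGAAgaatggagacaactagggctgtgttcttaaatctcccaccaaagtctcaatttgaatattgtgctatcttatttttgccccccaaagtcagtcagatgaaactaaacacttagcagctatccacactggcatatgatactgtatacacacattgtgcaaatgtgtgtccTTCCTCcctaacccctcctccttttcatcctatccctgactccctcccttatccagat
Irf8, chr8:120736108-120736357: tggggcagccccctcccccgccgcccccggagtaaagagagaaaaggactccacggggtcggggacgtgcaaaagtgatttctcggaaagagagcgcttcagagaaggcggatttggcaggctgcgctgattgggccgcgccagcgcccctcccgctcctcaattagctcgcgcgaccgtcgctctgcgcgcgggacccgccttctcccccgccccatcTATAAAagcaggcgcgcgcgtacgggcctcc
The PU.1 core stood at position -233 from the Ctsk start and, on the other strand, at -58. TATAAA stood at position -31 from the first Irf8 start. Of 32851 promoter windows of this length, 23.3% held GAGGAA and 12.4% held TATAAA on either strand. Neither window held CATGTG or CACGTG, the box of the osteoclast factor MITF, which 17.6% of windows held, nor the IRF element AANNGAAA, held by 21.3%, nor AAGGTCA, the half-site of the steroidogenic factor NR5A1, held by 4.08%. Both strands were searched, and no motif contains another. A match is a run of letters and was not tested as a binding site.

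**Figure D1:**
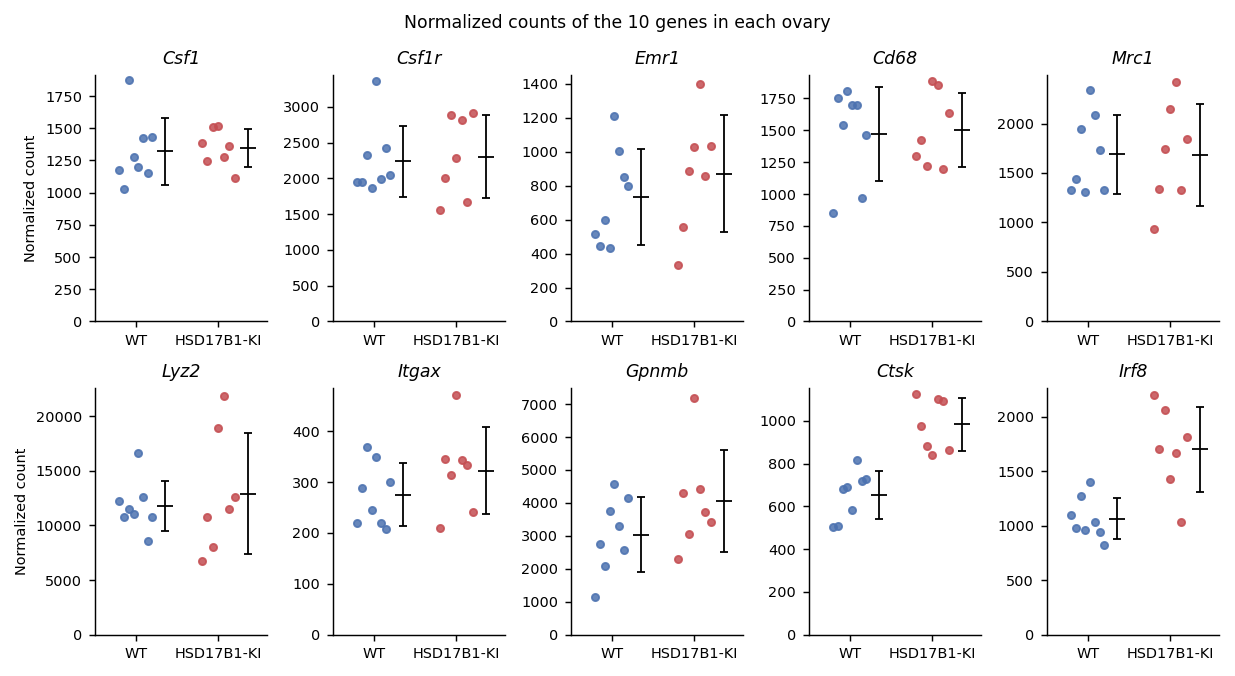
Normalized count of each of the 10 genes (y axis, from 0, 1 scale per gene) in WT (blue, n = 8) and HSD17B1-KI (red, n = 7) ovaries. Each point is 1 mouse, and the black mark and bar give the mean ± SD; Ctsk is the gene whose groups do not overlap, and for Irf8 only HSD17B1-KI 6 at 1038 falls among the WT values.

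The ligand and receptor of the macrophage growth factor system did not pass the test. Csf1, the growth factor (chromosome 3, 107741048 to 107760469, minus strand), ranged from 1117 through a median of 1366 to 1520 in HSD17B1-KI and from 1030 through 1238 to 1875 in WT. The groups overlapped throughout, and the difference was 0.04 ± 0.11 (SE) with a 95% interval of -0.20 to 0.29. Csf1r, its receptor, ranged from 1555 through 2281 to 2918 in HSD17B1-KI and from 1868 through 2018 to 3360 in WT, where WT 5 at 3360 stood apart from the other 7. The Csf1r difference was 0.03 ± 0.16, with an interval of -0.32 to 0.37.

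Among the surface and lysosomal markers of macrophages, no gene passed any of the tests. Emr1, which encodes the F4/80 antigen (chromosome 17, 57358691 to 57483527, plus strand), ranged from 334 through 884 to 1402 in HSD17B1-KI and from 434 through 698 to 1210 in WT. Its difference of 0.22 ± 0.29 had an interval of -0.41 to 0.85. Cd68, a lysosomal glycoprotein (chromosome 11, 69664213 to 69666153, minus strand), ranged from 1196 through 1427 to 1886 and from 849 through 1620 to 1811, respectively. Both extremes of Emr1 lay in HSD17B1-KI ovaries, and Cd68 differed by 0.05 ± 0.17. Mrc1, the mannose receptor (chromosome 2, 14229392 to 14332057, plus strand), ranged from 931 through 1747 to 2420 in HSD17B1-KI and from 1311 through 1588 to 2336 in WT. It was the single gene of the 10 with a negative difference, -0.04 ± 0.19.

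Lyz2, lysozyme M of macrophages and granulocytes (chromosome 10, 117277331 to 117282321, minus strand), ranged from 6741 through 11513 to 21824 in HSD17B1-KI and from 8611 through 11277 to 16662 in WT. Again both the lowest and the highest ovary were HSD17B1-KI, and the difference was 0.04 ± 0.22. Of the 50-base words of Lyz2 transcripts, 15.4% also occur in Lyz1, its near-identical paralog. How reads shared by both were counted is not given in the sources used here. Few reads were assigned to Lyz1, which averaged 21.8 and 31.0 normalized counts in HSD17B1-KI and WT, against 12911 and 11778 for Lyz2. The Lyz1 difference was -0.54 ± 0.29, with a limma-trend adjusted p of 0.563. Itgax, the integrin CD11c of dendritic cells and some macrophages (chromosome 7, 128129547 to 128150657, plus strand), ranged from 209 through 335 to 472 in HSD17B1-KI and from 208 through 267 to 369 in WT. Its difference of 0.22 ± 0.17 did not pass the test, and 8.02% of its 50-base words are shared with Itgad. The other 8 genes shared none.

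Gpnmb encodes a membrane glycoprotein of lipid-laden macrophages and osteoclasts (chromosome 6, 49036546 to 49070929, plus strand). It ranged from 2289 through 3723 to 7190 in HSD17B1-KI and from 1135 through 3023 to 4575 in WT. HSD17B1-KI 4 at 7190 was the 1 mouse above all WT ovaries, and 2 WT ovaries were below all HSD17B1-KI ovaries. The difference of 0.45 ± 0.28 had an interval of -0.15 to 1.05 and a limma-trend adjusted p of 0.639, so that it was not distinguishable from the spread between mice.

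**Figure D2:**
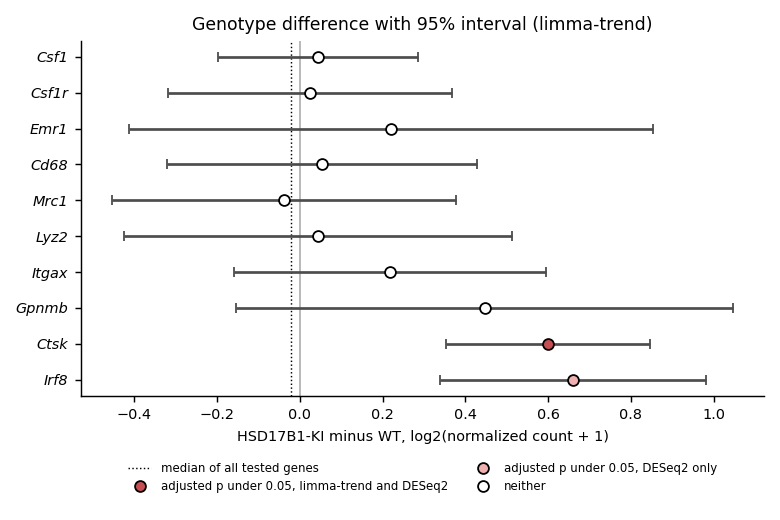
HSD17B1-KI minus WT on the log2(normalized count + 1) scale (x axis) for each of the 10 genes (y axis). Bars are 95% intervals from the limma-trend SE and the residual degrees of freedom. The interval lies above 0 for Ctsk (0.35 to 0.85) and Irf8 (0.34 to 0.98) and spans 0 for the other 8; the dotted line is the median of all tested genes, -0.02.

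In all, limma-trend called 1 of the 10 genes and DESeq2 called 2, against the backgrounds of 0.214% and 2.3% given above. At an unadjusted p under 0.05, 2 of 10 passed, against 2153 of 21525 genes (10%). The median difference of the 10 was 0.14, with 9 positive, while that of all tested genes was -0.02, with 44.8% positive. Per kilobase of exon, Lyz2 had the highest mean level over the 15 mice at 9352 normalized counts, followed by Cd68 at 1183, Gpnmb at 540 and Ctsk at 534. Below them came Csf1r at 393, Mrc1 at 264, Csf1 at 252, Emr1 at 246, Irf8 at 193 and Itgax at 61.9. Lyz2 was above Cd68, Cd68 above Gpnmb, Csf1r above Mrc1 and Irf8 above Itgax in 15 of 15 mice. Gpnmb was above Ctsk in 6 of 15 mice, Mrc1 above Csf1 in 7 and Csf1 above Emr1 in 8, so the order of these neighbours was not fixed. Ctsk was above Csf1r in 12 mice and Emr1 above Irf8 in 10.

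Macrophage RNA in each ovary was then estimated from 13 other macrophage genes, among them the complement genes C1qa, C1qb and C1qc, the receptors Fcgr1 and Mertk and the adaptor Tyrobp. The score is the mean of their log2(normalized count + 1) values, each centred on its mean over all mice. In HSD17B1-KI it was 0.06 ± 0.24 (SD, n = 7), from -0.22 to 0.46, against -0.05 ± 0.23 (SD, n = 8) for WT, from -0.28 to 0.36. The ranges overlapped, and the groups differed by 0.11. None of the 13 genes passed limma-trend or DESeq2, with a median difference of 0.13 and 12 positive. Only 1, Mertk, had an unadjusted limma-trend p under 0.05, against 10% of all genes. Cd14, a lipopolysaccharide co-receptor, was lowest at -0.40 and Cx3cr1, the fractalkine receptor, was highest at 0.33.

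Subtracting this score, which differed by 0.11 between genotypes, left most of the differences of Ctsk and Irf8 in place. Both genes were chosen with earlier results of these data known. The p values below therefore largely repeat the differences given above and are not separate evidence. Log2(normalized count + 1) minus the score was 9.43 to 10.36 for Ctsk in HSD17B1-KI and 8.96 to 9.77 in WT, 4 of the 7 HSD17B1-KI values exceeding all WT values. The difference was 0.49 ± 0.17 (SE), with p = 0.0169 in a two-sided exact permutation test over 6435 splits. For Irf8 it ranged from 10.06 to 11.32 in HSD17B1-KI and from 9.91 to 10.23 in WT, 5 of 7 exceeding all WT values. The difference was 0.55 ± 0.17 (SE), with an exact permutation p of 0.0050. Irf8 minus the score had an SD of 0.48 in HSD17B1-KI and 0.11 in WT. The SE and the permutation test take these as equal, so both are approximate for Irf8. With the score as a covariate across all genes, limma-trend gave 0.61 for Ctsk (adjusted p = 0.0263) and 0.63 for Irf8 (adjusted p = 0.0624). That fit takes the slope on the score as the same in both genotypes. Irf8 had r with the score of 0.89 within WT and -0.26 within HSD17B1-KI.

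**Figure D3:**
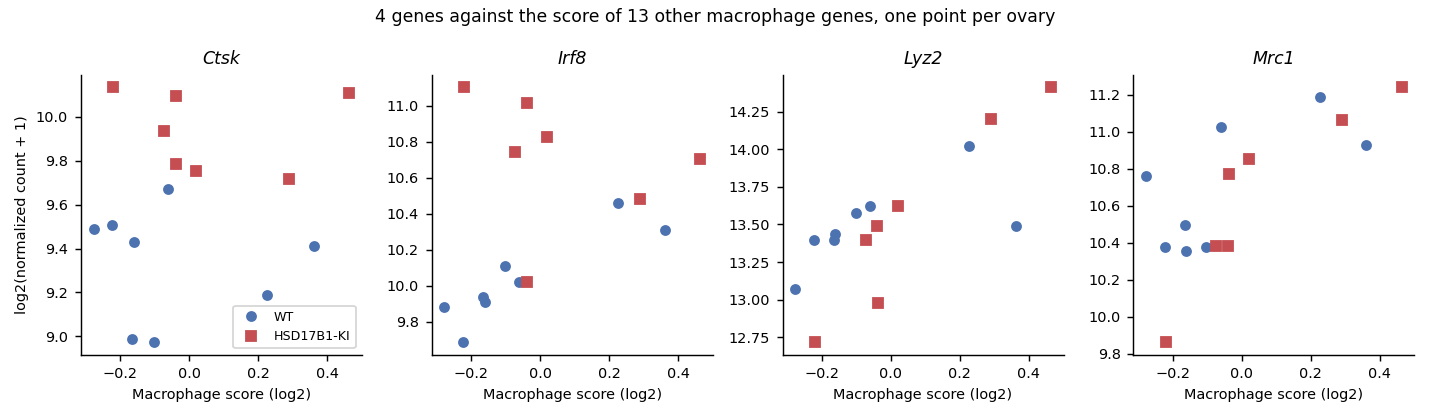
Log2(normalized count + 1) of Ctsk, Irf8, Lyz2 and Mrc1 (y axes, not from 0) against the macrophage score (x axis, log2 scale) in WT (blue circles, n = 8) and HSD17B1-KI (red squares, n = 7), 1 point per mouse. Lyz2 and Mrc1 climb with the score in both groups (r = 0.79 and 0.78 on deviations from the genotype means), Ctsk shows no slope (r = -0.09), and Irf8 climbs in WT (r = 0.89) but not in HSD17B1-KI (r = -0.26).

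Whether a gene followed the macrophage score from mouse to mouse was measured on deviations from the genotype means (n = 15), with permutation within genotype and adjustment over 28 relations. Lyz2 followed the score with Pearson's r of 0.79 (permutation p = 0.0004, adjusted p = 0.0081) and Spearman's rho of 0.84 (permutation p = 0.0001, adjusted 0.0022). Without the mice farthest from the median score, HSD17B1-KI 5 and WT 3, r was 0.90. Mrc1 had r of 0.78 (permutation p = 0.0006, adjusted 0.0081) and rho of 0.78 (permutation p = 0.0017, adjusted 0.0232), and r was 0.78 without those mice. The other members did not pass the adjustment. Their r was 0.68 for Itgax, 0.55 for Csf1r, 0.54 for Emr1, 0.49 for Cd68, 0.38 for Csf1 and 0.28 for Gpnmb. The adjusted permutation p was 0.190 for Emr1, 0.190 for Csf1r and 0.204 for Cd68. As these are macrophage genes, failing the adjustment does not show that a gene is independent of macrophage content.

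Ctsk did not follow the score detectably. Its r was -0.09 (permutation p = 0.758, adjusted 0.893) and its rho -0.18 (permutation p = 0.529, adjusted 0.695), with r of -0.42 without the 2 farthest mice. Within HSD17B1-KI r was -0.12 (exact p = 0.765, adjusted 0.893) and within WT it was -0.08 (exact p = 0.872, adjusted 0.934).

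Irf8 followed the score in WT ovaries more closely than in HSD17B1-KI ovaries. Over both groups r was 0.23 (permutation p = 0.428, adjusted 0.668) and rho 0.27 (permutation p = 0.352, adjusted 0.550), and r was 0.14 without the 2 farthest mice. Within WT, r was 0.89 (exact permutation p = 0.0054, adjusted 0.05, at and not under the threshold) and rho was 0.90 (exact permutation p = 0.0046, adjusted 0.0426), and r was 0.72 without WT 3 and WT 5. Within HSD17B1-KI, r was -0.26 (exact permutation p = 0.571, adjusted 0.810) and rho -0.43 (exact permutation p = 0.354, adjusted 0.550). The difference in r between genotypes was -1.15, with a two-sided permutation p of 0.0193, or 0.0385 adjusted over the tests of Irf8 and Ctsk. All 6435 splits of the mice were used, each mouse keeping its deviations from its own genotype means. The test takes the spread of Irf8 and that of the score as equal in both genotypes. The score had an SD of 0.24 in HSD17B1-KI and 0.23 in WT, but equal spread of Irf8 was not tested. The p of the difference in r is therefore approximate. This test was added after the values within each genotype had been seen. Leaving out HSD17B1-KI 3, WT 3 or WT 5 gave a permutation p of 0.0516, 0.0600 and 0.0594, and leaving out HSD17B1-KI 6 gave 0.0030.

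**Figure D4:**
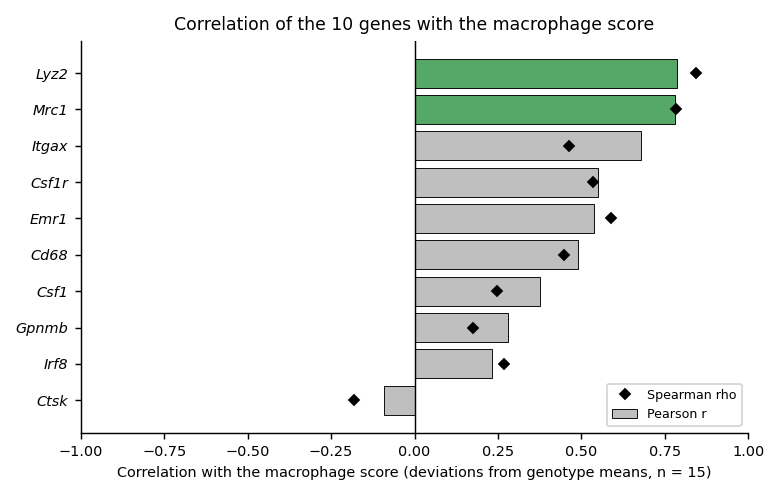
Pearson's r (bars, from 0) and Spearman's rho (diamonds) of each of the 10 genes (y axis) with the macrophage score, on deviations from the genotype means over 15 mice. Green bars mark an adjusted p under 0.05, which Lyz2 (0.79) and Mrc1 (0.78) reached; by Pearson's r, Ctsk (-0.09) and Irf8 (0.23) are lowest, while by rho Irf8 (0.27) is above Csf1 (0.25) and Gpnmb (0.175).

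HSD17B1-KI 1, singled out after its values were seen, had the third lowest macrophage score. It also had the lowest normalized count of Emr1 (334), Csf1r (1555), Mrc1 (931) and Lyz2 (6741) among the 15 mice, and the highest of Ctsk (1123) and Irf8 (2199). Counted from the lowest, it ranked 2 for Itgax, 3 for Gpnmb, 5 for Cd68 and 10 for Csf1. Without it the genotype difference was 0.57 for Ctsk (limma-trend adjusted p = 0.0995) and 0.59 for Irf8 (limma-trend adjusted p = 0.171). The correlation between Ctsk and Irf8 themselves was -0.20 on deviations from the genotype means.

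The genes whose pattern was most like that of Ctsk, ranked among 13864 genes that averaged 100 normalized counts or more, by r over 15 deviations from the genotype means, were Pygo2 (0.89), Fam207a (0.88), Kitl (0.87), Bub3 (0.85) and Ddost (0.83). Kitl, the granulosa cell ligand of KIT, differed by 0.69 between genotypes at a limma-trend adjusted p of 0.0566, and the other 4 by -0.0006 to 0.07. For Irf8 they were Acan (0.78), Ppp1r14a (0.76), Mapt (0.76), Fam83g (0.74) and Acvrl1 (0.74). Of these, Mapt, the microtubule-associated protein tau, was called higher in HSD17B1-KI, by 1.07 at a limma-trend adjusted p of 0.0468. No macrophage member was among either set. The nearest was Csf1 for Ctsk, at r of 0.38, and Csf1r for Irf8, at 0.43. Each likeness is a description over the same 15 libraries, and the part of depth and cell makeup in it was not tested.

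Beyond Ctsk, no osteoclast gene passed the test. Of 19 osteoclast genes, 18 were in the table, none was called by limma-trend or DESeq2, and the median difference was -0.01 with 8 positive. At an unadjusted p under 0.05, 2 were higher and 1 was lower, against the 10% of all genes. Acp5, the tartrate-resistant acid phosphatase, averaged 648 normalized counts in HSD17B1-KI and 545 in WT (0.21 ± 0.14). Clcn7, 1 of the 2 higher, averaged 3499 and 2894 (0.27 ± 0.09, limma-trend adjusted p = 0.266). Nfatc1, the master factor of osteoclast formation, averaged 494 and 613 (-0.33 ± 0.10, limma-trend adjusted p = 0.248), and Tnfrsf11a, the receptor RANK, averaged 177 and 222 (-0.39 ± 0.22). The extremes were Ocstamp, a fusion factor, at 0.73 ± 0.24 from means of 23.0 and 14.2, and Siglec15, at -1.32 ± 1.31. The fusion factor Dcstamp was near the filter, at means of 2.09 and 5.34.

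The relatives of Ctsk and Irf8 were likewise not called. Of 13 other lysosomal proteases, none passed limma-trend or DESeq2, 11 were positive and the median was 0.12, from Ctse at -0.32 to Ctsh at 0.35. At an unadjusted limma-trend p under 0.05, 3 were higher (Ctsf, Ctsh and Ctso) and 0 lower, against 10% of all genes in either direction. Ctso had the smallest DESeq2 adjusted p, 0.0534, with a difference of 0.31 ± 0.09. Of the 8 other interferon regulatory factors, none was called and the median was -0.05, with Irf1 highest at 0.22. Irf4 differed by -0.50 ± 0.19 and Irf5 by -0.24 ± 0.11, both with unadjusted limma-trend p under 0.05, as had 10% of all genes.

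Of the 11 further growth factor, receptor and lineage factor genes, limma-trend called none. DESeq2 called Cebpa, a myeloid and metabolic factor, which averaged 4942 ± 1533 (SD, n = 7) normalized counts in HSD17B1-KI against 2868 ± 515 (SD, n = 8) for WT (0.75 ± 0.16, DESeq2 adjusted p = 0.0017). Spi1, which encodes PU.1, averaged 349 and 356, with a difference of -0.04 ± 0.15. Runx1 was lowest at -0.39 ± 0.44. Il34, the second ligand of CSF1R, differed by -0.06 ± 0.33.

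Among 13 genes of lipid-associated macrophages, DESeq2 called Apoe, the lipid carrier, at 54067 ± 12303 (SD, n = 7) and 36216 ± 5481 (SD, n = 8) normalized counts (0.56 ± 0.13, DESeq2 adjusted p = 0.0047). The other 12 did not pass, with Fabp4 lowest at -1.36 ± 0.42, and the list median was 0.18. Of 6 resident macrophage genes none was called by limma-trend or DESeq2, with a median of -0.44, from Cd209f at -0.69 to Stab1 at 0.03. Folr2 and Cd209f, 2 of the 6, were lower at an unadjusted limma-trend p under 0.05, against 10% of all genes in either direction. Apoe and Cebpa are also made by steroidogenic or fat cells.

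Other cell types that an ovary holds were described with lists of the same kind. None of the 143 tested list genes outside the 10, of 145 listed, passed limma-trend, and DESeq2 called 3, Apoe, Cebpa and Insl3, all higher, against 2.3% of all genes. edgeR called 0, and at an unadjusted limma-trend p under 0.05, 13 of the 143 were higher and 12 lower, against 10% of all genes in either direction. Their median was 0.03. Dendritic cell genes, a group in which Irf8 acts, had a median of -0.18, from Cd209a at -0.91 to Siglech at 0.43. Monocyte and neutrophil genes had a median of -0.66, from Ly6g at -1.09 to Ly6c2 at -0.03. Lymphocyte genes had a median of -0.03, with Ms4a1 lowest at -0.32. Stromal genes had a median of -0.03, from Col1a1 at -0.23 to Tcf21 at 0.32, and endothelial genes a median of 0.00, from Kdr at -0.09 to Tek at 0.17.

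The theca and interstitial list, of steroidogenic genes and others such as Insl3 and Gli1, had the highest list median. All 7 were positive with a median of 0.85, from Gli1 at 0.04 to Cyp17a1 at 1.88 ± 1.55, and DESeq2 called Insl3 (1.17 ± 0.29, DESeq2 adjusted p = 0.0023). The sum of the list was 271405 to 565700 normalized counts in HSD17B1-KI and 191159 to 472483 in WT. Most of it was Cyp11a1, which averaged 342309 in HSD17B1-KI and 272914 in WT. Granulosa genes had a median of 0.34, from Fshr at -0.05 to Cyp19a1 at 0.74. Luteal genes had a median of 0.25, from Scarb1 at 0.02 to Akr1c18 at 0.63.

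Adipose genes had a median difference of -1.65, from Adipoq at -1.82 to Plin1 at 0.44. None passed limma-trend or DESeq2. All 4 had an unadjusted limma-trend p under 0.05, 3 lower and 1, Plin1, higher, against 10% of all genes in either direction. The adipose score was -0.62 ± 1.33 (SD, n = 7) for HSD17B1-KI against 0.54 ± 0.80 (SD, n = 8) for WT, with list sums of 2209 to 5946 and 1753 to 6971 normalized counts. Oviduct genes varied widely between mice. They had a median of -0.95, from Ovgp1 at -1.96 to Foxj1 at -0.82, with sums of 128 to 19072 in HSD17B1-KI and 142 to 215499 in WT. The part of these cell types in the differences of Ctsk and Irf8 was not tested. On deviations from the genotype means, r with the theca and interstitial score was -0.30 for Ctsk and 0.30 for Irf8, and with the adipose score -0.03 and -0.17. With the luteal score it was -0.65 for Ctsk (permutation p = 0.0161, adjusted 0.0903) and 0.47 for Irf8 (permutation p = 0.0632, adjusted 0.204). For dendritic cells it was -0.30 and 0.26, for stroma 0.22 and 0.12, and for endothelium 0.01 and 0.05. No relation with these 6 scores passed the adjustment over 28.

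**Figure D5:**
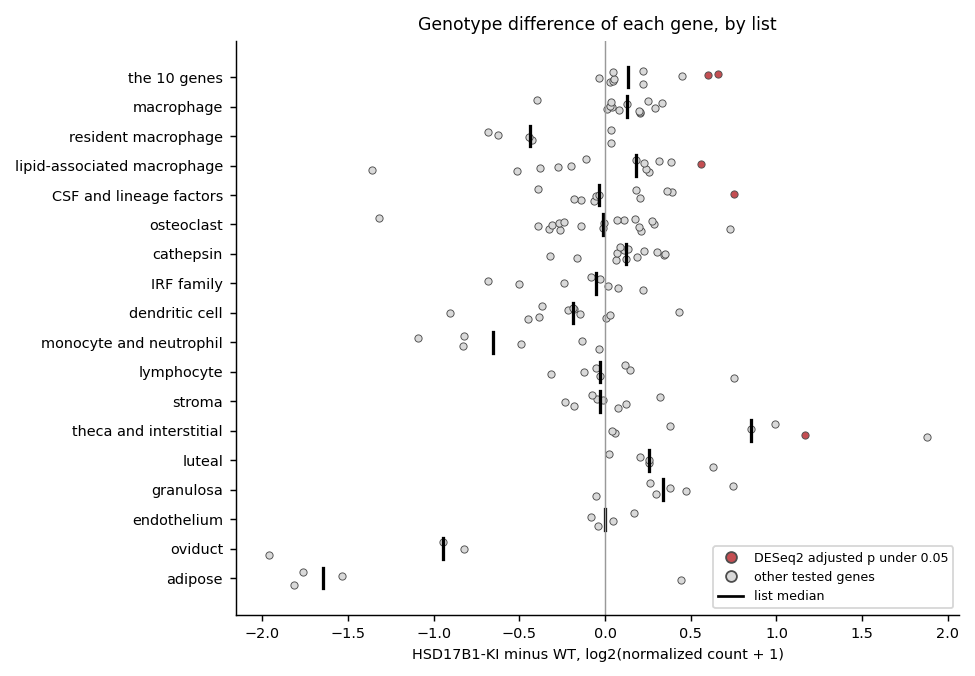
HSD17B1-KI minus WT on the log2(normalized count + 1) scale (x axis) for every tested gene of each list (y axis). Points are genes, red where the DESeq2 adjusted p is under 0.05, and black bars are list medians. The macrophage (0.13), osteoclast (-0.01) and IRF family (-0.05) medians lie near 0. Other related lists lie lower or higher: monocyte and neutrophil (-0.66), resident macrophage (-0.44), dendritic cell (-0.18) and lipid-associated macrophage (0.18). Ctsk (0.60) and Irf8 (0.66) are the red points among the 10 genes.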

How the data were processed

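Ovaries of 15 mice were processed into 1 TruSeq Stranded mRNA library each and sequenced. The authors demultiplexed reads with bcl2fastq 2.20, trimmed them, aligned to mm10 with STAR 2.7.3 and deposited signal per gene, which are read counts divided by DESeq2 size factors. The counting program and annotation release are not given in the sources used here. Whole reads were recovered for 100% of values (tolerance 0.01 read). Totals were 39092867 to 69972608 reads in HSD17B1-KI and 26544745 to 72362981 in WT.

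Genes with a mean of at least 2 were tested on log2(normalized count + 1) with limma-trend (limma 3.58.1, R 4.3.3), genotype only, two-sided. edgeR 4.0.16 (quasi-likelihood, TMM), DESeq2 1.42.0, pseudocounts of 0.1 and 10, no filter, a mean of at least 10, quantile normalization, a replicate block, the macrophage score as a covariate and the omission of each mouse were alternatives. Correlations used 100000 permutations, or all 5040 or 40320 pairings within a genotype, in SciPy 1.17.1. The fits were checked on simulated data.

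The 10 genes and the lists were chosen with earlier results of these data known. The genes named were all 10, every list gene past a test, the extremes of each list, the 5 genes most like Ctsk and the 5 most like Irf8, and Lyz1, except that some list extremes are not reported here. Other genes named (Mertk, Ctsf, Folr2, Acp5, Clcn7, Nfatc1, Tnfrsf11a, Dcstamp, Ctso, Irf4, Irf5, Spi1, Il34 and Cyp11a1) were chosen for their known roles or after their values were seen. Gene positions and exon lengths came from GENCODE M21 (GRCm38), in which 27533 of 27907 identifiers were found. The labels name separate mice and no batch.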

Additional observations from a re-analysis of the deposited data

Results flagged for a closer look

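In WT, Csf1r was 3360 normalized counts in WT 5, farther from the other 7 mice than expected of a group of 8 (gap over range 0.556 on the log2 scale, critical value 0.526). It was 1 of 26 groups examined, and chance marks about 1 in 20. The correlation of Irf8 with the macrophage score differed between genotypes by -1.15 (HSD17B1-KI -0.26, WT 0.89, approximate permutation p = 0.0193). The difference was tested after its values were seen, and its p rose to 0.0516, 0.0600 and 0.0594 without HSD17B1-KI 3, WT 3 or WT 5.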

How the results depend on the processing

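The number of genes called by limma-trend, 46, became 28 with no filter, 28 with quantile normalization, 456 with DESeq2 and 0 with the replicate block (limma-trend, 1735 genes at an unadjusted p under 0.05), and ranged from 6 to 674 when 1 mouse was left out, the highest with DESeq2 (270 to 674) and the limma-trend counts being 6 to 139. The limma-trend call of Ctsk was lost with no filter (0.60, adjusted p = 0.0557), with quantile normalization (0.67, 0.0638) and with the replicate block (0.62, 0.366), and its difference ranged from 0.54 to 0.65 without 1 mouse, with limma-trend or DESeq2. Irf8 was called by DESeq2 (0.68), and its difference ranged from 0.59 to 0.77 without 1 mouse. Over all alternatives the adjusted p of Ctsk reached 0.366 and that of Irf8 0.366. Relative to the macrophage score, Ctsk had 0.54 (exact permutation p = 0.0625) and Irf8 0.53 (exact permutation p = 0.0469) with the replicate block. The correlation of Ctsk with the score ranged from -0.26 to 0.0087 without 1 mouse, positive without HSD17B1-KI 1. That of Irf8 ranged from 0.10 to 0.44, highest without HSD17B1-KI 1.

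Differences near 0 changed sign. With the macrophage score as a covariate they were -0.059 for Csf1r, -0.029 for Cd68 and -0.12 for Lyz2. Without 1 mouse they ranged from -0.038 to 0.11 for Csf1r, from -0.0037 to 0.12 for Csf1, from -0.053 to 0.10 for Cd68, from -0.14 to 0.093 for Mrc1 and from -0.10 to 0.18 for Lyz2. The cause was not tested.

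The replicate numbers gave no clear sign of pairs of mice, and the labels do not say whether pairs existed. The correlation of same-numbered mice was -0.55 to 0.55, and 1 of 7 mice correlated best with its own number. The lowest value of any of the 10 genes in any mouse was 208 normalized counts.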
